A study of Mus musculus with 2 samples.

Results

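The genes described here encode 53 enzymes that break down amino acids or handle the methyl and sulfur groups released from them. They were chosen by symbol, as probe sets annotated to a single gene, and 50 of the 53 had such a probe set, out of 18193 genes with one on the array. Amt, Sds and Sdsl had none and were not analysed here. The 50 genes are read by 83 probe sets, and 29 of them rest on a single probe set.

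RNA came from hepatocytes of male FVB mice aged 6 to 8 weeks and was read on Affymetrix Mouse Genome 430 2.0 arrays, which measure transcripts near their 3′ ends. All mice had received 10 µg of the plasmid PT3EF5α EzrinT567D, which encodes a phosphomimetic form of ezrin, the linker between plasma membrane and actin cortex, together with 0.8 µg of pCMV/SB, a source of Sleeping Beauty transposase, in 2 ml of saline, forced into the tail vein within seconds. Hepatocytes were isolated with collagenase after 1 week and sorted by GFP into EzrinT567D negative cells (1 array) and EzrinT567D positive cells (1 array). The negative cells are therefore unmarked cells of injected animals, not of untouched ones. The labels conflict on time and diet: the growth protocol gives chow for both, whereas the descriptions name 2 months in each case and set chow for the negative against fast food for the positive sample. Diet and sorted fraction cannot be told apart where the descriptions hold. How many mice stand behind each array is not given in the sources used here.

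A single array stands for each group, so what follows sets 1 array against another, with no test and no error between animals. A technical error can be had from genes with several probe sets: the log2 ratios from a gene's brightest and next brightest probe set, both above background, differed by an SD of 0.41 over 3122 genes, and by an SD of 0.39 over the 19 such members. The former amounts to an SD of 0.29 for 1 log2 ratio. The probe sets share the same 2 arrays, so these SDs hold no error from sorting or isolating the cells. Signals are linear intensities scaled by the authors to the same trimmed mean. Chemosensory receptor genes, which hepatocytes should not express, set the background floor: the 95th percentile of their 84 probe sets was 276.6 (negative array) and 334.04 (positive array), and all 50 genes exceeded it in each array. Of the hepatocyte markers, 7 of 8 had a probe set and all 7 were above the floor, with a summed signal of 276876 and 263296 in the negative and positive arrays. Above the floor in at least 1 array were 0 of 5 cholangiocyte markers, 0 of 4 T and B cell markers, 3 of 7 Kupffer cell markers (summed signal 1909 and 1595), 5 of 7 sinusoidal endothelial markers (3206 and 3705), 5 of 6 stellate cell markers (2569 and 2439) and 1 of 3 red cell markers. For Actb the ratio of 3′ to 5′ signal went from 0.970 to 0.864, and for Gapdh from 3.46 to 3.13. The part of these values in the differences below was not tested. Fewer cells of a kind and less RNA per cell cannot be told apart in such bulk samples.

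As background, the liver is the main site of amino acid breakdown. Most pathways start by removing the amino group, through aminotransferases or deaminases, and pass the carbon skeleton to pyruvate, the citric acid cycle or ketone bodies, while the nitrogen goes to the urea cycle. Several of these enzymes, among them histidase and serine dehydratase, are known to be most abundant in hepatocytes near the portal vein, and many respond to protein intake, glucagon and glucocorticoids.

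Amino acid breakdown genes were mostly lower in EzrinT567D positive hepatocytes, and a few were much lower. Of the 50 genes, 43 (86.0%) had a lower signal and 7 a higher one, with a median log2 ratio of -0.25, or 1.19-fold lower. These directions are those of the brightest probe set. Of the 19 members with 2 or more probe sets above both floors, 11 were lower in all and 1 higher in all. The other 7 had probe sets on both sides of 0. A loess correction for signal strength left 38 lower and 12 higher, with a median of -0.16, against 53.4% of all genes lower after the same correction. Among all 9849 genes above the floor in at least 1 array, 48.1% read lower and 46.3% higher, around a median of 0.00. At least 1.5-fold lower were 10 members (20%, against 4.11% of all genes) and at least 2-fold lower were 6 (12%, against 0.599%). At least 1.5-fold higher were 2 members (4%, against 6.15% of all genes), and 0 members were at least 2-fold higher (against 1.14%). A total of 24 members lay within 1.2-fold of equal signal.

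**Figure D1:**
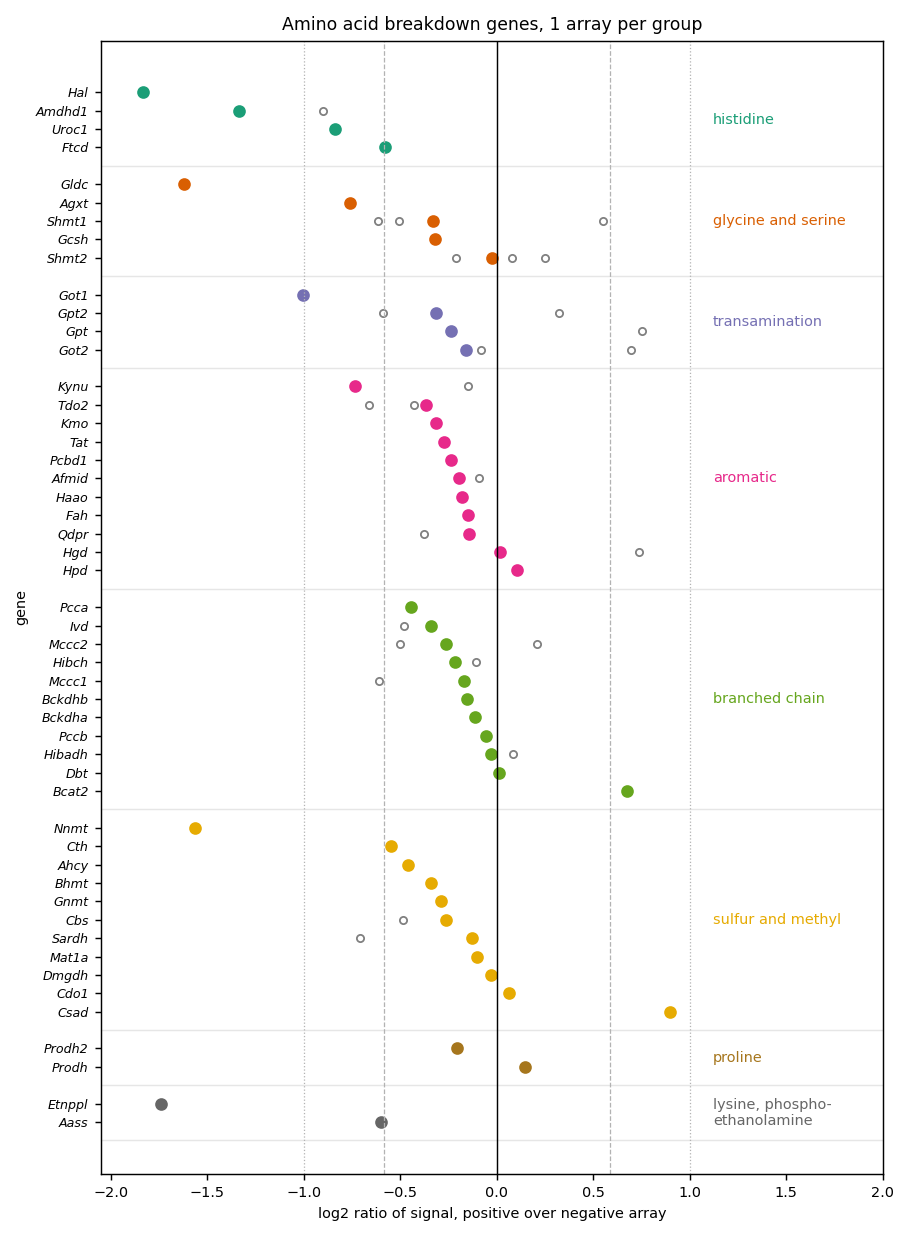
Log2 ratio of signal, positive over negative array, for each of the 50 genes, grouped by amino acid; filled points are the brightest probe set of a gene, open points its other probe sets that exceed both floors, dashed lines mark 1.5-fold and dotted lines 2-fold. Most filled points lie left of 0, and 6 genes reach 2-fold lower.

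Ratios also went with signal strength. Across the array, brighter genes had lower ratios: the median was 0.08 for 4310 genes with a mean signal up to 1000, -0.04 for 2549 genes up to 3000, -0.10 for 1031 genes up to 10000 and -0.13 for 349 genes above that. In the brightest class 11 of 14 members (78.6%) were lower, which is the share of all genes there (78.5%), with a median of -0.25 for the members. In the class from 1000 to 3000, 19 of 20 members (95%) were lower against 56.0% of all genes, and 5 of the 6 genes at least 2-fold lower belong to it. Over all 3929 genes with a mean signal above 1000, 60.9% were lower, 3.64% at least 1.5-fold and 0.738% at least 2-fold, while 39.1% were higher, 2.77% at least 1.5-fold and 0.840% at least 2-fold. The share of lower members among the brightest genes is thus close to that of all genes in that class. The counts of lower genes in each group below are to be read beside these shares.

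**Figure D2:**
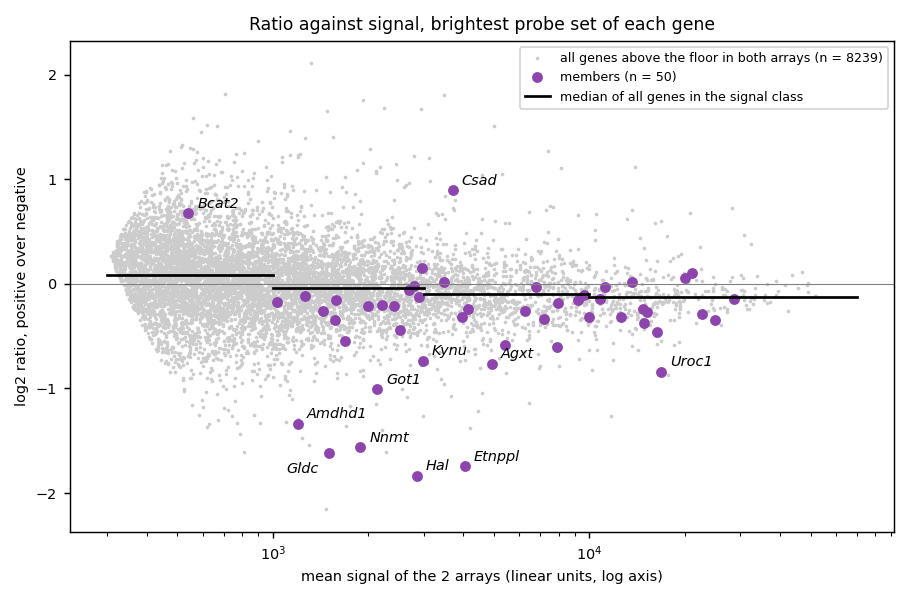
Log2 ratio (vertical axis) against the mean signal of the 2 arrays (log axis) for 8239 genes above the floor in both arrays (grey) and the 50 members (purple); black bars are the median of all genes in each signal class. Hal, Etnppl, Gldc, Nnmt, Amdhd1 and Got1 lie below most grey points at their signal, and Csad and Bcat2 above 0.

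The 6 genes at least 2-fold lower act on histidine, glycine, aspartate, nicotinamide and phosphoethanolamine. Hal, histidase, was the second lowest of the 8239 genes that exceed both floors, Etnppl the third, Gldc the fifth, Nnmt the eighth, Amdhd1 number 17 and Got1 number 49. Each was lower in every probe set it has above the floor, but only Amdhd1 has more than 1. To show what the strongest differences share in sequence, the 250 bases before the annotated start of 5 of them are printed from RefSeq (GRCm38.p6, 5′ to 3′ on the gene's strand). Nnmt is left out because the sequences used here hold no such window for it. Capitals mark matches on either strand to motifs of liver transcription factors: CAAAGTCCA (HNF4), TTGCNNAA (C/EBP), the palindromic HNF1 motif, AGAACA (glucocorticoid receptor) and CTTTGAT (TCF/LEF).
Hal, chr10:93488518-93488767, plus strand: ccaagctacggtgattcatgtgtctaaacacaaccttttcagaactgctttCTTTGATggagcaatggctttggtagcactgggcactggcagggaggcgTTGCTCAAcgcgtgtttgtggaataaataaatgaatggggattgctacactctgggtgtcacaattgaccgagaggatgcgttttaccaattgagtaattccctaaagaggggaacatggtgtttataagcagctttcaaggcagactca
Amdhd1, chr10:93540034-93540283, minus strand: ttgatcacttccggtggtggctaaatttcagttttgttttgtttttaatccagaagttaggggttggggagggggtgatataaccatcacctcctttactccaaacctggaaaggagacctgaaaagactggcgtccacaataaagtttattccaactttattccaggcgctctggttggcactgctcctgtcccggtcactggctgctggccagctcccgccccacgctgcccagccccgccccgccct
Gldc, chr19:30175442-30175691, minus strand: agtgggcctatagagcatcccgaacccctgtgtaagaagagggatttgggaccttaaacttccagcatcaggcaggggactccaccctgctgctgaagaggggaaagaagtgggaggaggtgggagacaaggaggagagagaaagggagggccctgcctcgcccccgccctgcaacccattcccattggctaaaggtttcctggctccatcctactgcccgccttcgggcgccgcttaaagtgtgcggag
Etnppl, chr3:130617198-130617447, plus strand: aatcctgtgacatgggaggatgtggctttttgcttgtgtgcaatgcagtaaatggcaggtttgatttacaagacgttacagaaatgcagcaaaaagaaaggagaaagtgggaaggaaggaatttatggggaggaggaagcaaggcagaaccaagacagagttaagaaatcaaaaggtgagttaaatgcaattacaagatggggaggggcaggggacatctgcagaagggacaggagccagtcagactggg
Got1, chr19:43524606-43524855, minus strand: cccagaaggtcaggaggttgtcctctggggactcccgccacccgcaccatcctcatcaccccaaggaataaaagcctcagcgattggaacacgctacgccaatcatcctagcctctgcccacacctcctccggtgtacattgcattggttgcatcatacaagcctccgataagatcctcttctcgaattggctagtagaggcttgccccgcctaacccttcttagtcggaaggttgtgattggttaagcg

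The 5 windows share no match to these motifs. Only the Hal window holds any, a TCF/LEF match beginning 199 bases and a C/EBP match beginning 150 bases before the start. Over 49 windows of 44 members found by symbol, C/EBP letters were in 5 genes (Aass, Hal, Hgd, Prodh2 and Qdpr), the glucocorticoid receptor letters in 4 (Agxt, Bckdhb, Haao and Pccb), TCF/LEF letters in 2 (Haao and Hal), and the HNF4 and HNF1 letters in 0. Of all 32851 RefSeq windows of this length, 9.56% held the C/EBP letters, 16.1% the glucocorticoid receptor letters and 3.21% the TCF/LEF letters. The HNF4 letters were in 0.384% and the HNF1 letters in 0.00913%. Exact strings this rare would hardly be met in 44 genes, so the 0 for HNF4 and HNF1 does not show that such sites are lacking. A match is a string of letters and not evidence of binding. GC content of the printed windows ran from 45.6% (Hal) to 59.6% (Gldc).

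Histidine breakdown was lower at all 4 measured steps, from just under 1.5-fold for Ftcd to 3.57-fold for Hal. Hal, which removes the amino group of histidine to form urocanate, gave a signal of 4455.1 in negative and 1248.3 in positive cells (log2 ratio -1.84), the order used for each pair of signals from here on. Uroc1, the urocanase that acts next, read 21681.4 and 12114.6, a 1.79-fold lower signal (-0.84), and its other probe set, at 2674.7 and 1495.6, also gave -0.84. Amdhd1, which opens the imidazolone ring, read 1720.2 and 681.2, 2.53-fold lower (-1.34), with -0.90 in its other probe set. Ftcd, which passes the formimino group to folate, read 6480.0 and 4329.6 (-0.58), just short of 1.5-fold. The group's median of -1.09 was the lowest among groups of more than 2 genes. Hal and Amdhd1 are adjacent protein-coding genes in the RefSeq table. Without the histidine genes, 39 of 46 members were lower, with a median of -0.23.

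**Figure D3:**
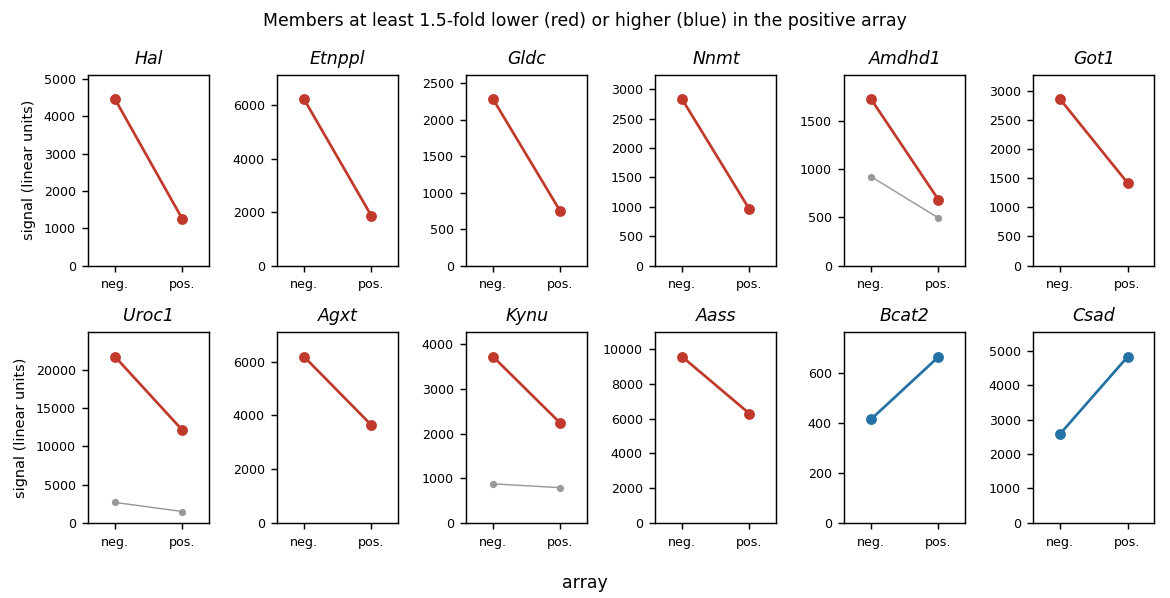
Signal (linear units, axes from 0) in the negative (neg.) and positive (pos.) array for the 10 members at least 1.5-fold lower (red) and the 2 at least 1.5-fold higher (blue); coloured lines are the brightest probe set and grey lines the others above the floor. Hal drops from 4455.1 to 1248.3 and Csad climbs from 2590.2 to 4818.3, and each panel has its own scale.

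Glycine and serine genes were lower in 5 of 5 (4 of 5 after loess or quantile normalization, where Shmt2 was slightly higher), but by very different amounts. Gldc, the decarboxylase of the mitochondrial glycine cleavage system, read 2279.0 and 742.0, a 3.07-fold lower signal (-1.62). Gcsh, which carries the aminomethyl group in the same complex, read 11067.6 and 8871.0 and differed far less (-0.32). The gap between these subunits is more than 3 times the SD between probe sets of a gene. Agxt, the aminotransferase that converts glyoxylate to glycine, read 6181.7 and 3641.1, 1.70-fold lower (-0.76). The hydroxymethyltransferases, which interconvert serine and glycine, were closer to equal: cytosolic Shmt1 read 8015.3 and 6361.9 (-0.33) and mitochondrial Shmt2 read 2823.1 and 2775.2 (-0.02). Their other probe sets ran from -0.62 to 0.55 for Shmt1 and from -0.21 to 0.25 for Shmt2, so neither has a settled direction.

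Among the aminotransferases that exchange amino groups with glutamate, the cytosolic aspartate enzyme stood apart from its mitochondrial counterpart. Got1 read 2847.5 and 1417.7, 2.01-fold lower (-1.01, and under 2-fold at -0.98 after quantile normalization and -0.96 after loess), whereas Got2 read 9727.7 and 8711.1 (-0.16). A dim probe set of Got2, from 279.4 near the floor to 452.3, gave 0.69. The alanine aminotransferases were similar to each other, with 4468.8 and 3788.2 for Gpt (-0.24) and 13985.8 and 11229.9 for Gpt2 (-0.32). Both also had a probe set on the other side of 0, at 0.75 for Gpt and 0.32 for Gpt2. With ratios averaged over probe sets, Got2 (0.15) and Gpt (0.26) were higher and the group's median was -0.04. Only Got1 was then lower by more than the SD of 0.41 between probe sets over all genes. Got1 has 1 probe set, so its own spread is not known.

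Aromatic amino acid genes differed little, and 9 of 11 (81.8%) were lower with a median of -0.20. Most have a mean signal above 10000, the class where 78.5% of all genes were lower. In tyrosine breakdown the ratios lay on both sides of 0. Tat, the tyrosine aminotransferase, read 16699.5 and 13814.5 (-0.27), Hpd, which forms homogentisate, 20342.4 and 21864.5 (0.10), Hgd, which opens its ring, 13580.6 and 13713.3 (0.01), and Fah, the last step, 11387.9 and 10269.4 (-0.15). A dim second probe set of Hgd read 599.1 and 997.4 (0.74). The enzymes that regenerate tetrahydrobiopterin, the cofactor of aromatic hydroxylases, were slightly lower: Qdpr read 30041.7 and 27191.0 (-0.14) and Pcbd1 read 15944.7 and 13536.9 (-0.24).

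In tryptophan breakdown through kynurenine, 5 of 5 genes were lower, against 60.9% of all genes with a mean signal above 1000. Tdo2, the dioxygenase that commits tryptophan to this route, was lower in 3 of 3 probe sets, at -0.37 (16753.6 and 12964.8), -0.43 and -0.66. Afmid, which releases kynurenine, read 2356.2 and 2054.4 (-0.20), and Kmo, which hydroxylates it, 4381.4 and 3518.8 (-0.32). Kynu, the kynureninase, read 3720.9 and 2234.2, 1.67-fold lower (-0.74), but its second probe set gave -0.15 and the mean of both (-0.44) is under 1.5-fold. Haao, which leads on toward NAD, read 8452.8 and 7465.3 (-0.18, and -0.06 after loess). The ratios of Afmid and Haao are within the technical SD of 0.29 for 1 ratio, and that of Kmo is close to it.

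Branched chain genes also differed little, with 9 of 11 lower (7 after loess, where Hibadh and Pccb changed side), a median of -0.16 and 0 at least 1.5-fold lower. Bcat2, the mitochondrial aminotransferase that starts the route and is usually low in hepatocytes, was the exception: it read 416.4 and 665.4, 1.60-fold higher (0.68). It is also the dimmest member, in the class of genes up to 1000 where 40.4% were lower. The subunits of the branched chain ketoacid dehydrogenase read 1317.7 and 1216.5 for Bckdha (-0.12), 1668.6 and 1496.8 for Bckdhb (-0.16) and 3461.8 and 3493.5 for Dbt (0.01). All 3 ratios are within the spread between probe sets. Of their regulators, the kinase Bckdk had a ratio of -0.23 and the phosphatase Ppm1k one of -0.12.

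Further along the branched chain route, Ivd, the isovaleryl-CoA dehydrogenase of leucine breakdown, read 1758.4 and 1385.5 (-0.34), with -0.48 in its second probe set. The subunits of the leucine carboxylase read 1096.5 and 973.4 for Mccc1 (-0.17) and 1574.8 and 1312.3 for Mccc2 (-0.26). A dimmer probe set of Mccc1 gave -0.61. Those of Mccc2 gave -0.50 and 0.21, so its direction is not settled. Hibch and Hibadh, on the valine branch, had ratios of -0.22 and -0.03, with -0.11 and 0.08 in their other probe sets. Of propionyl-CoA carboxylase, Pcca read 2916.3 and 2141.4 (-0.45) and Pccb 2754.3 and 2644.0 (-0.06), a difference within the SD between probe sets of a single gene.

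Genes of methionine, methyl and sulfur metabolism spread most widely, from 2.96-fold lower to 1.86-fold higher, with 9 of 11 lower (7 after loess, where Mat1a and Dmgdh changed side) and a median of -0.26. Nnmt, which spends the methyl group of S-adenosylmethionine on nicotinamide, read 2828.1 and 956.5 (-1.56). The methionine cycle itself differed less. Mat1a, which makes S-adenosylmethionine, read 9932.7 and 9235.3 (-0.11), Gnmt, which methylates glycine, 24865.7 and 20356.3 (-0.29), and Ahcy, which splits S-adenosylhomocysteine, 18890.6 and 13705.4 (-0.46). Bhmt, which remethylates homocysteine with betaine, read 27915.2 and 22027.6 (-0.34). Dmgdh and Sardh, which oxidise dimethylglycine and sarcosine, had ratios of -0.03 and -0.13, the latter with -0.71 in a second probe set.

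On the route from homocysteine through cysteine to taurine, ratios lay on both sides of 0. Those of Cdo1 and of the brightest Cbs probe set are within the spread between probe sets. Cbs, which joins homocysteine to serine, read 6822.6 and 5687.8 (-0.26), with -0.49 in its other probe set, and Cth, which releases cysteine, read 2006.8 and 1374.0, 1.46-fold lower (-0.55). Cdo1, which oxidises cysteine, read 19598.8 and 20433.4 (0.06). Csad, the decarboxylase that leads to taurine, read 2590.2 and 4818.3, 1.86-fold higher (0.90), the highest ratio among the 50 genes and number 127 from the top among 8239. Csad, Bcat2 and Nnmt each rest on 1 probe set whose probes may be shared among transcripts of the gene, with no second to compare.

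The remaining genes belong to proline, lysine and phosphoethanolamine. Prodh, the proline dehydrogenase, read 2803.6 and 3103.3 (0.15), and Prodh2, which oxidises hydroxyproline, 2146.4 and 1858.8 (-0.21), both within the spread between probe sets. Aass, which starts lysine breakdown in mitochondria, read 9542.2 and 6282.8, 1.52-fold lower (-0.60). Etnppl acts on phosphoethanolamine rather than on an amino acid, and its signals were 6217.3 and 1860.1, 3.34-fold lower (-1.74).

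Enzymes of the same pathways that are not in the list were lower in a similar share and by less. Of 55 further breakdown genes, 47 were above the floor, 39 of them (83.0%) on the lower and 8 on the higher side. Their median was -0.15. Of all genes with a mean signal above 1000, 60.9% were lower, with a median of -0.07. Above 10000, 78.5% were lower, with a median of -0.13. How much of the count goes with signal strength was not tested. Only Sqor, which oxidises hydrogen sulfide, was at least 1.5-fold lower (7598.9 and 4847.8, -0.65), and 0 were at least 1.5-fold higher. Bhmt2, the neighbour of Bhmt and Dmgdh in the RefSeq table, had a ratio of -0.23. Of genes that make serine, glycine, proline or asparagine, 1 of 5 was above the floor (Psph, -0.19). Regulators of amino acid breakdown had no common direction, with 5 of 11 lower, 6 higher and a median of 0.00. Of these regulators, 0 were at least 1.5-fold lower or higher, but Hnf4a and Foxo1 lay outside 1.2-fold. The glucagon receptor Gcgr was at 0.13, the glucocorticoid receptor Nr3c1 at 0.03, Klf15 at -0.13 and Cebpa at 0.00. Cebpb was at 0.12, Hnf4a at -0.32, Foxo1 at 0.31 and Atf4 at 0.20, and Bckdk and Ppm1k are given above. Ppargc1a read 341.2 and 238.8, the latter below the floor, so its ratio is only bounded, at -0.03 or lower.

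Genes of the liver zones differed as well. Of 16 periportal genes that are not members, 15 were lower and 12 at least 1.5-fold, with a median of -0.84, and of 15 pericentral genes above the floor 14 were higher and 11 at least 1.5-fold, with a median of 1.05. Hepatocyte markers had a median of -0.01 over 7 genes. How much of the members' differences goes with zone was not tested, and the arrays give 1 value per gene and group.

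**Figure D4:**
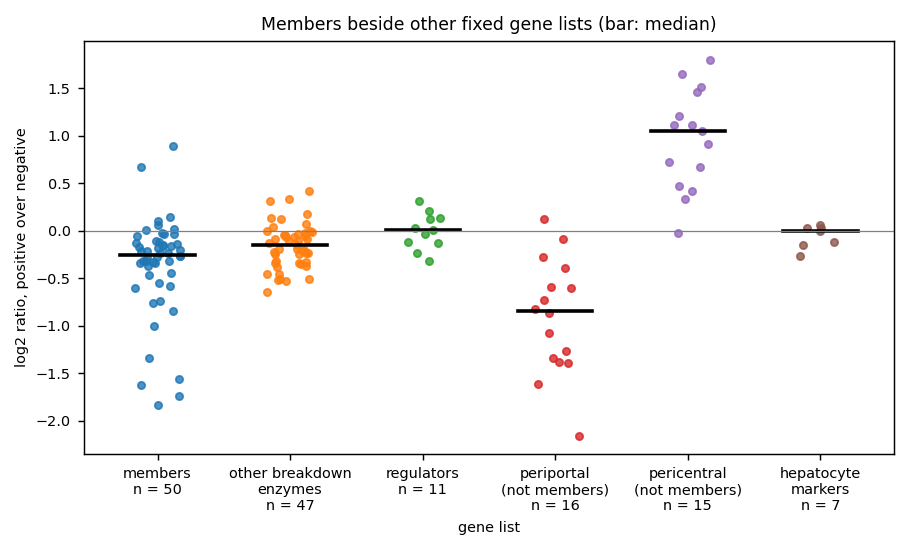
Log2 ratio, positive over negative array, of each gene (points) and the median (bars) for the 50 members, 47 other breakdown enzymes, 11 regulators, 16 periportal and 15 pericentral genes and 7 hepatocyte markers. The members centre at -0.25 with a tail down to -1.84, periportal genes centre at -0.84 and pericentral genes at 1.05.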

How the data were processed

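The authors' deposited values are intensities, 1 per probe set and array on a linear scale, made with MAS5 per the submitters' processing notes. The sources used here give no version, settings or detection calls. The 2% trimmed mean was 500.0 in both arrays. Probe sets were named from the platform annotation, and the Entrez IDs of all 83 member probe sets matched RefSeq with 0 changed symbols. The brightest probe set (mean of both arrays) stood for its gene. A gene above the floor in 1 array only was given a bound against the other array's floor, or a ratio of 0 where that bound pointed the wrong way. Log2 ratios were computed with Python 3.11.15, pandas 2.3.3 and numpy 2.4.6, and the ratio code was tested on simulated data. No p-value is given. Members, gene lists and motifs were chosen with earlier results of these data known. Every member could be named, with both signals at 1.5-fold or more. Other listed genes were to be named at 1.5-fold or more, and all regulators could be named. Bhmt2 and Psph were named outside this rule. Signal classes, RefSeq neighbours and a median over probe sets were added after seeing the data. The number of arrays limits the precision. Protein sequences were not used here.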

Additional observations from a re-analysis of the deposited data

How the results depend on the processing

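There were 11 planned settings and 1 chosen after seeing the data. The 10 members at least 1.5-fold lower kept their direction under all 12 wherever they had a value. The 5 changes of floor or bound left each member's ratio as it was with the brightest probe set, including that of Bcat2, the member nearest the floor. The median of the members (-0.25) was -0.18 after quantile normalization and -0.16 after loess correction, and that of the sulfur and methyl group (-0.26) was -0.17 and -0.15. Higher members numbered 12 after loess and 11 with the mean over probe sets, against 7. The mean over probe sets put the transamination median at -0.037 (-0.28 before). Leaving out probe sets with IDs ending in _s_at, _x_at or _a_at, 43 members had a value, the glycine and serine median was -0.55 (-0.33 before) and 1 member was at least 1.5-fold higher. That member is Gpt (0.75), since Csad and Bcat2 drop out, and so does Nnmt, which leaves 5 members at least 2-fold lower against 6. Aass was under 1.5-fold after quantile normalization (-0.53) and loess (-0.49). Without a floor 15.5% of all genes were at least 1.5-fold lower and with each array's median signal as the floor 6.32%, against 4.11%. No paired analysis was possible because each group has 1 array.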
